A study of Mus musculus with 12 samples.

Results

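Mn1, 7 genes of the Hoxa cluster (Hoxa3, Hoxa5, Hoxa6, Hoxa7, Hoxa9, Hoxa10 and Hoxa11) and the homeobox genes Meis1 and Pbx3 were followed through 12 bulk RNA-seq libraries of mouse bone marrow. They were taken by gene symbol, and all 10 were found among the 24444 genes of both deposited tables. The mice were C57BL/6 animals with or without Hopx, a homeobox gene whose short protein lacks DNA binding. MN1_KO was marrow of Hopx-knockout mice with MN1 overexpression (replicates 5, 7 and 8), and MN1_WT was marrow of Hopx wild-type mice with MN1 overexpression (replicates 2, 3 and 4), both with a labelled age of 16 weeks. aged_KO (replicates 3, 9 and 10) and aged_WT (replicates 1, 6 and 7) were marrow of Hopx-knockout and of Hopx wild-type mice without MN1, labelled old, with an age of 18 weeks. The number of a library in its label is unique within the MN1 or the aged experiment, but pooling of animals, sex, and how MN1 was introduced are not given in the sources used here, so p-values measure only the spread between these libraries, which may be technical. MN1 status, labelled age and deposited table coincided and cannot be told apart.

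MN1 is a transcriptional coregulator without a known DNA-binding domain, and mouse progenitors that overexpress it cause acute myeloid leukaemia after transplantation. HOX proteins are homeodomain transcription factors encoded in clusters, and in blood the Hoxa genes are used by stem cells and early progenitors and are switched off as cells mature. HOX proteins bind DNA together with TALE homeodomain proteins of the PBX and MEIS families, and HOXA9 with MEIS1 and PBX3 is a leukaemia-associated combination.

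The 10 genes were high together in 4 of the 6 MN1 libraries and near aged levels in the other two. In MN1_KO replicates 5, 7 and 8 and in MN1_WT replicate 3, all 10 genes were above every one of the 6 aged libraries. The margin was small in MN1_KO replicate 8 for Pbx3 (1.08 times the highest aged library) and Hoxa6 (1.29 times). Separation was common among all genes tested: 42.1% were higher without overlap in MN1_KO against aged_KO and 27.2% in MN1_WT against aged_WT. The share of all genes in such a position was not counted for single libraries. In MN1_WT replicate 2, 3 of the 10 genes (Hoxa7, Hoxa9 and Hoxa10) were above every aged library and 7 were within their range. In MN1_WT replicate 4, 0 genes were above the aged range, 5 were within it and 5 (Hoxa3, Hoxa5, Hoxa7, Hoxa9 and Meis1) were below it. MN1_WT replicates 2 and 4 therefore went against their label for Mn1 itself, and main fold changes that rest on MN1_WT are given with and without them.

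The libraries held 16544407 to 28409046 counts each. Hopx, the gene that was knocked out, was at 2.92 to 3.51 CPM (a library's counts scaled to a common total) in MN1_KO and 14.1 to 27.9 CPM in MN1_WT, and at 0 to 0.121 CPM in aged_KO and 14.2 to 33.6 CPM in aged_WT. The libraries labelled MN1_KO thus held 67 to 85 Hopx counts each, against 0 to 2 in aged_KO. Hopx was lower in MN1_KO than in MN1_WT but not absent, which differs from the knockout label. The source of these reads was not tested. Markers of stem and progenitor cells (10 of 10 detected) summed to 1050 to 3628 CPM in MN1_KO and 318 to 3698 CPM in MN1_WT, against 215 to 233 CPM in aged_KO and 359 to 385 CPM in aged_WT. Neutrophil markers (12 of 12 detected), which mark the main cell type of mouse marrow, summed to 23894 to 90969 CPM in MN1_KO and 41546 to 91993 CPM in MN1_WT, and to at least 82132 CPM in every aged library. The sum of 4 Y-linked genes was 8.05 to 21.6 CPM in MN1_KO and 81.8 to 241 CPM in MN1_WT, and at most 0.152 CPM in the aged libraries. Xist, the RNA of the inactive X chromosome, was at 585 to 4937 CPM in MN1_KO and at 18.1, 4001 and 2.40 CPM in MN1_WT replicates 2, 3 and 4, against 435 to 823 CPM in the aged libraries. MN1_WT replicates 2 and 4 were thus below all other libraries in Xist, as they were below the other 4 MN1 libraries in Mn1. In bulk marrow, more cells of a type and more RNA of a gene per cell cannot be told apart.

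Mn1 was at 47.3 CPM in MN1_KO replicate 5, at 46.3 CPM in replicate 7 and at 22.1 CPM in replicate 8. In MN1_WT its level was 0.395 CPM in replicate 2, 36.4 CPM in replicate 3 and 0.160 CPM in replicate 4. In marrow without MN1 overexpression it was at 0.165, 0.0704 and 0.181 CPM in aged_KO replicates 3, 9 and 10, and at 1.18, 0.977 and 0.456 CPM in aged_WT replicates 1, 6 and 7. The 4 high libraries were at 18.7 to 39.9 times the highest aged library, and no library lay between 1.18 and 22.1 CPM. The values rest on 509 to 1150 counts in the 4 high libraries and on 2 to 22 counts in the other 8. Reads of an introduced and of the endogenous Mn1 gene are one number in a table by gene symbol, so the source of the Mn1 reads cannot be told apart.

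**Figure D1:**
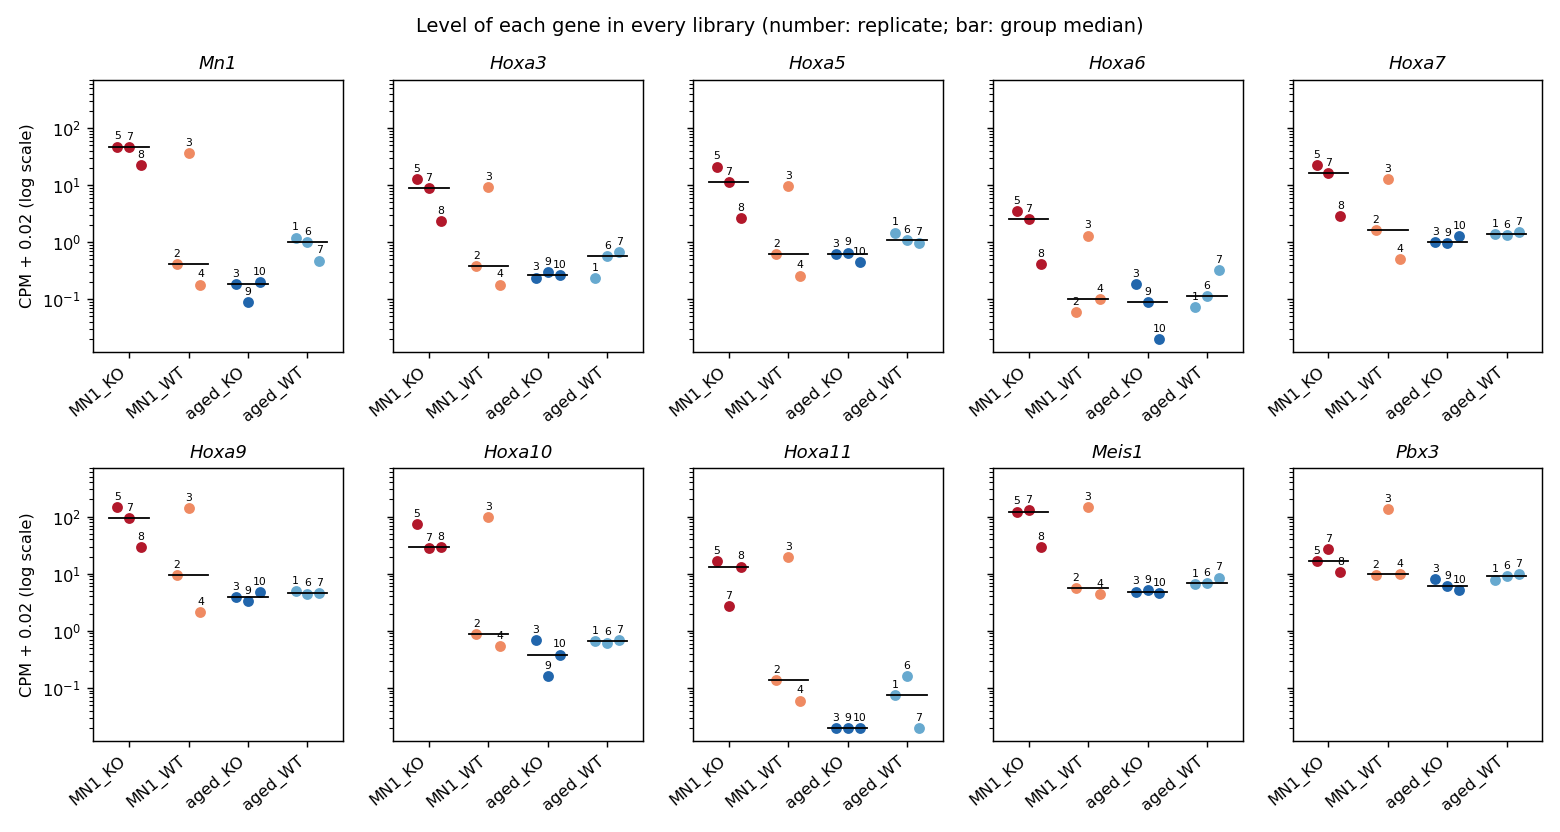
Level of each of the 10 genes in every library, as CPM + 0.02 on a log axis, with MN1_KO, MN1_WT, aged_KO and aged_WT in that order; numbers are replicates and bars are group medians. MN1_WT replicate 3 sits with the MN1_KO libraries in 9 panels and above them for Pbx3, while MN1_WT replicates 2 and 4 sit near the 6 aged libraries.

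Within the Hoxa cluster (mouse build mm10, chromosome 6, minus strand), the genes lie in order from Hoxa3 (chr6:52169062-52213336), Hoxa5 (chr6:52201754-52204587), Hoxa6 (chr6:52206288-52208722) and Hoxa7 (chr6:52214491-52221854) to Hoxa9 (chr6:52223100-52231089), Hoxa10 (chr6:52231197-52240854) and Hoxa11 (chr6:52242106-52245810). Mn1 is on chr5:111417362-111457033 (plus strand), Meis1 on chr11:18879817-19018985 (minus strand) and Pbx3 on chr2:34171457-34373142 (minus strand). RefSeq windows of 300 bases around the start (250 before, 50 after, build GRCm38.p6) were at hand for 8 of the 10 genes, in 9 windows. The windows of 4 genes are shown because these genes were high in the same libraries. Hoxa3 stands for the more 3′ genes, although its window, at the upstream end of its span, lies between Hoxa6 and Hoxa7. Hoxa9 and Hoxa10 were the most abundant Hoxa transcripts in the 4 libraries with high Mn1, and Meis1 is the TALE partner. The 4 windows are read 5′ to 3′ on the minus strand, and capitals mark CG dinucleotides.
Hoxa3, chr6:52213018-52213317: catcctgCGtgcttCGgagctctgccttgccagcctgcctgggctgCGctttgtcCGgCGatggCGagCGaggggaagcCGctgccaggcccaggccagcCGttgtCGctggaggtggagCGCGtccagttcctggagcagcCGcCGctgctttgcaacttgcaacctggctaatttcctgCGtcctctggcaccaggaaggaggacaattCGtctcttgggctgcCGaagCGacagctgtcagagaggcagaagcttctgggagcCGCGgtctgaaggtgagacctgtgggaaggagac
Hoxa9, chr6:52227321-52227620: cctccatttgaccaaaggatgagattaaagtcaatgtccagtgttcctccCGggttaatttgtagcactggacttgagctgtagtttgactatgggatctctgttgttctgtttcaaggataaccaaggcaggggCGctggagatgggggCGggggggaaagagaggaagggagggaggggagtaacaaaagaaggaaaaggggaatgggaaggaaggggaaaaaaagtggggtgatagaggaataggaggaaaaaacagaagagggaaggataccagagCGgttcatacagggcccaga
Hoxa10, chr6:52234890-52235189: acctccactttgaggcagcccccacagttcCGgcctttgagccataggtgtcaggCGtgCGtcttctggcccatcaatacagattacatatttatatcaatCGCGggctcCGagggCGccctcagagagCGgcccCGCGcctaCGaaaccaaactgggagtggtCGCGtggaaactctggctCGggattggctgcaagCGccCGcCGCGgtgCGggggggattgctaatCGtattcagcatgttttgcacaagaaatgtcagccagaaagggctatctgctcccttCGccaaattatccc
Meis1, chr11:19018920-19019219: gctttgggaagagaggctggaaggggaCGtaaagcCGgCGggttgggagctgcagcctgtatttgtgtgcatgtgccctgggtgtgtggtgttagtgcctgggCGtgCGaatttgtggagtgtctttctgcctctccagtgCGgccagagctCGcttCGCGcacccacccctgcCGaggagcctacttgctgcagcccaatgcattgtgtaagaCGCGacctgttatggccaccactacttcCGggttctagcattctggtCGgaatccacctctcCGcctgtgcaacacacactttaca
These starts differed widely in base composition. The Hoxa9 window held 4 CG dinucleotides, the fewest of the 9, and the Hoxa5 window held 29, the most; the Hoxa10 window shown held 21, Hoxa3 20 and Meis1 15, and the median of all 32851 windows was 7. The letters TGACAG, a core recognised by MEIS proteins, were found on either strand in 1 of the 9 windows, that of Hoxa3, against 19.2% of all windows. The letters TGATNNAT, a composite HOX and PBX site, were found in 0 of the 9 and in 8.85% of all windows, so no match of one overlapped a match of the other.

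Hoxa9, the AbdB-type homeobox gene most often linked to myeloid leukaemia, was the most abundant Hoxa transcript per length in 11 of the 12 libraries. It was at 146, 93.8 and 29.6 CPM in MN1_KO replicates 5, 7 and 8, and at 9.41, 143 and 2.08 CPM in MN1_WT replicates 2, 3 and 4. Without MN1 it was at 3.90, 3.27 and 4.71 CPM in aged_KO and at 4.95, 4.46 and 4.56 CPM in aged_WT. The aged libraries thus spanned a narrow range, the MN1_KO libraries lay above it, and the MN1_WT libraries fell on both sides of it. In MN1_WT replicate 2 the gene was 1.90 times the highest aged level, with Mn1 below the highest aged level.

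Hoxa10, the next gene of the cluster and also of the AbdB type, lay further above its highest aged library than Mn1 did in each of the 4 high libraries. Its log2 fold change in MN1_KO against aged_KO was smaller, at 6.48 against 7.76 for Mn1. Its level was 75.2, 27.7 and 28.9 CPM in MN1_KO and 0.870, 99.0 and 0.520 CPM in MN1_WT, against 0.659, 0.141 and 0.363 CPM in aged_KO and 0.646, 0.605 and 0.659 CPM in aged_WT. The 4 libraries with high Mn1 were 42.1 to 150 times the highest aged library. MN1_WT replicate 3 stood first and MN1_KO replicates 7 and 8 were close to each other, although Mn1 in replicate 8 was below that in replicate 7.

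Hoxa11, the most 5′ of the Hoxa genes followed here, is best known from limb and reproductive tract patterning. It was at 16.9, 2.69 and 13.3 CPM in MN1_KO and at 0.119, 19.8 and 0.0400 CPM in MN1_WT. It had 0 counts in all aged_KO libraries and 4 counts over the 3 aged_WT libraries. MN1_KO replicate 7 was therefore low for Hoxa11 although it was high for Mn1. Hoxa11os, an antisense RNA annotated over 35.0% of the exon bases of Hoxa11, had 113, 22 and 147 counts in MN1_KO, 0, 90 and 0 counts in MN1_WT and 0 in the aged libraries. The strand setting of the counting is not given in the sources used here, so reads of this pair are uncertain.

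The more 3′ genes of the cluster were high in the same 4 libraries. Hoxa7 was at 22.0, 16.2 and 2.87 CPM in MN1_KO and at 1.58, 12.6 and 0.480 CPM in MN1_WT, against 0.950 to 1.27 CPM in aged_KO and 1.30 to 1.47 CPM in aged_WT. Hoxa5, which is also used in lung and skeletal patterning, was at 21.0, 11.1 and 2.61 CPM in MN1_KO and at 0.593, 9.43 and 0.240 CPM in MN1_WT, against 0.423 to 0.634 CPM in aged_KO and 0.963 to 1.45 CPM in aged_WT. In MN1_KO replicate 8 these genes were 1.95 and 1.80 times the highest aged library, the smallest distances among the 4 high libraries. Hoxa3 was at 12.6, 8.90 and 2.35 CPM in MN1_KO and at 0.356, 9.13 and 0.160 CPM in MN1_WT, against 0.220 to 0.282 CPM in aged_KO and 0.215 to 0.659 CPM in aged_WT. Hoxa6, a neighbour of Hoxa5 and Hoxa7, was at 3.50, 2.50 and 0.392 CPM in MN1_KO and 0.0395, 1.29 and 0.0801 CPM in MN1_WT, and it had 5 counts over aged_KO and 9 counts over aged_WT.

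Meis1 encodes the TALE cofactor that binds DNA with HOXA9 and maintains stem cells. It was at 122, 129 and 29.2 CPM in MN1_KO and at 5.61, 145 and 4.44 CPM in MN1_WT, against 4.83, 5.13 and 4.53 CPM in aged_KO and 6.57, 6.74 and 8.52 CPM in aged_WT. It was high in the same 4 libraries as Hoxa9, with MN1_KO replicate 8 again the lowest of them.

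Pbx3, the PBX cofactor found with HOXA9 and MEIS1 in leukaemia, was in each MN1_KO library the gene least far above the highest aged library. It was at 16.7, 27.1 and 10.6 CPM in MN1_KO and at 9.41, 136 and 9.81 CPM in MN1_WT, against 8.02, 6.12 and 5.08 CPM in aged_KO and 7.91, 9.07 and 9.83 CPM in aged_WT. All MN1_KO libraries were above every aged library, but by 1.08 to 2.76 times, whereas MN1_WT replicate 3 was 13.8 times the highest aged library. That 1 MN1_WT library held more Pbx3 than the 3 MN1_KO libraries together, while its Mn1 level was within the range of theirs. With 1 such library, this contrast has no replicate.

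**Figure D2:**
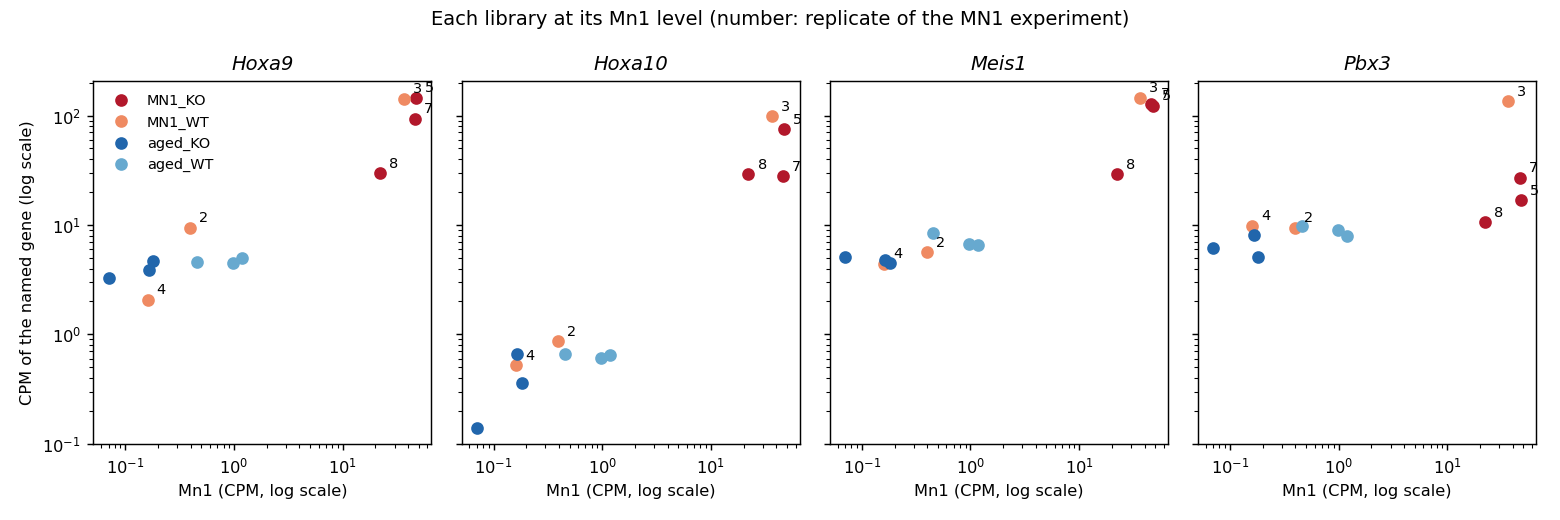
Levels of Hoxa9, Hoxa10, Meis1 and Pbx3 in each library against its Mn1 level, in CPM on log axes, coloured by group (MN1_KO, MN1_WT, aged_KO, aged_WT), with replicate numbers for the MN1 experiment. The libraries form a cloud of 8 with Mn1 at 1.18 CPM or less and another of 4 with Mn1 at 22.1 CPM or more; Pbx3 in MN1_KO stays close to the cloud of 8.

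Compared per length, in TPM (counts scaled by transcript length and to a common total), Hoxa9 and Meis1 came first in MN1_KO and Pbx3 in the aged groups. In MN1_KO the mean levels were 49.99 ± 37.5 TPM for Hoxa9, 47.2 ± 31.1 TPM for Meis1 and 33.3 ± 25.7 TPM for Hoxa10 (SD, n = 3), followed by Hoxa7, Hoxa5, Pbx3, Mn1, Hoxa11, Hoxa6 and Hoxa3 at 12.7 to 5.55 TPM. Neighbours in this order did not differ beyond their SDs. In aged_KO Pbx3 came first at 3.44 ± 1.05 TPM, with Meis1 at 2.11 ± 0.239 TPM and Hoxa9 at 1.88 ± 0.304 TPM, and in aged_WT Pbx3 was at 4.51 ± 0.525 TPM, Meis1 at 3.02 ± 0.492 TPM and Hoxa9 at 2.10 ± 0.130 TPM. Meis1 and Hoxa9 differed by less than an SD of either in aged_KO, and by more in aged_WT. The ratio of Pbx3 to Meis1, both in TPM, was 0.169, 0.259 and 0.446 in MN1_KO replicates 5, 7 and 8, 2.05, 1.15 and 2.67 in MN1_WT replicates 2, 3 and 4, 1.38 to 2.01 in aged_KO and 1.40 to 1.63 in aged_WT. The MN1_KO libraries were below all others in this ratio, and MN1_WT replicate 3 was the lowest of the rest.

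The makeup of the Hoxa transcripts also differed, both in total and in position along the cluster. The summed level of the 7 genes was 228, 108 and 44.1 TPM in MN1_KO and 7.89, 218 and 2.43 TPM in MN1_WT, against 4.37, 3.19 and 3.69 TPM in aged_KO and 4.99, 4.73 and 5.43 TPM in aged_WT. The AbdB-type genes Hoxa9, Hoxa10 and Hoxa11 made up 72.1, 65.9 and 86.4% of that sum in MN1_KO and 71.9, 84.9 and 61.7% in MN1_WT, against 51.1 to 62.9% in aged_KO and 46.2 to 53.3% in aged_WT. MN1_KO replicate 8 had the lowest sum of the 4 high libraries and the largest AbdB share of all 12. In that library Hoxa10 made up 40.1%, Hoxa9 28.4% and Hoxa11 17.8% of the sum, and it was the only library in which Hoxa10 passed Hoxa9. The ratio of Hoxa10 to Hoxa9, both in TPM, was 0.720, 0.387 and 1.41 in MN1_KO and 0.130, 0.978 and 0.349 in MN1_WT, against 0.0654 to 0.207 in aged_KO and 0.179 to 0.195 in aged_WT. Shares in the libraries with sums under 10 TPM rest on few counts, at most 29 per library for any Hoxa gene but Hoxa9 in the aged libraries.

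**Figure D3:**
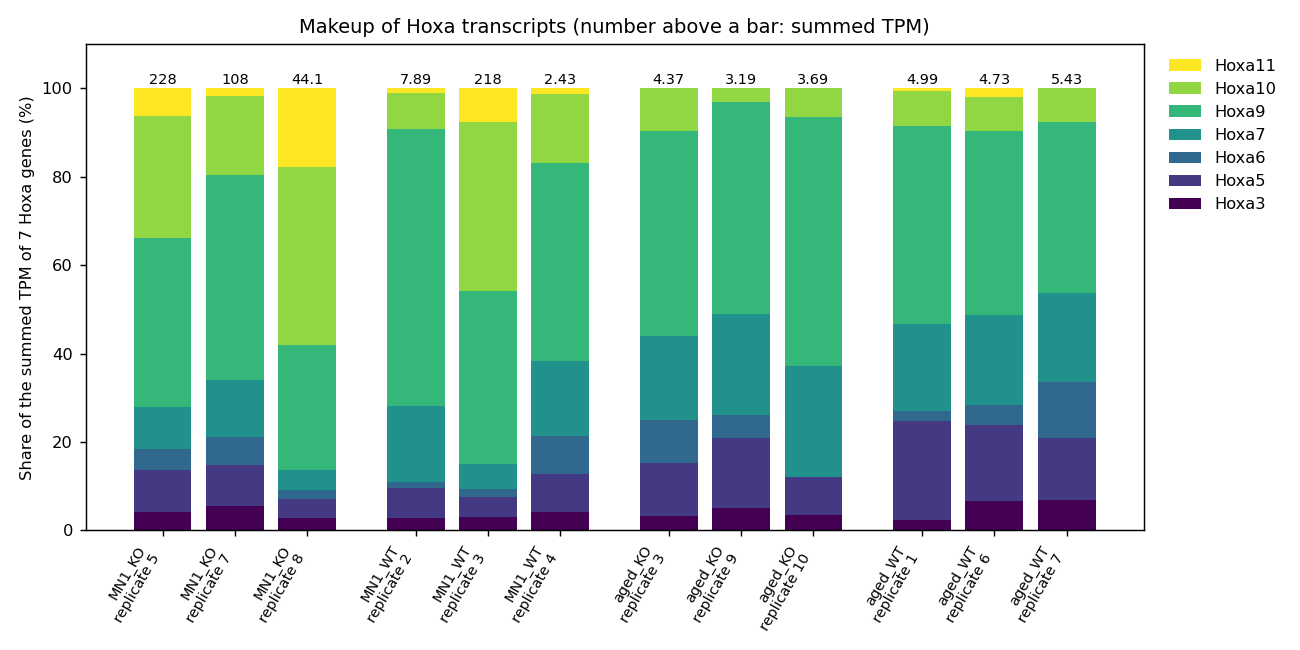
Share of each of 7 Hoxa genes in their summed TPM, in percent, for every library in the order MN1_KO, MN1_WT, aged_KO and aged_WT; the number above a bar is the summed TPM. The bars of MN1_KO replicate 8 and MN1_WT replicate 3 hold the largest part of Hoxa10 and Hoxa11, with sums of 44.1 and 218 TPM.

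Overexpression was first compared in the Hopx-knockout mice. Of the 10 genes, 9 were higher in MN1_KO than in aged_KO at an adjusted p under 0.05 (edgeR quasi-likelihood test, Benjamini-Hochberg over all 13937 genes tested), and Pbx3 was not past that threshold; it passed when only those 6 libraries were fitted (1.10 ± 0.34, edgeR adjusted p = 0.0446). Mn1, Hoxa3, Hoxa6 and Hoxa11 were removed by the filter on low counts when the aged libraries alone were fitted. They entered this fit through the MN1 libraries, where they were high, so their calls are no independent support. The comparison was broad: 37.9% of all genes tested passed, 21.1% higher and 16.8% lower in MN1_KO. Groups did not overlap for 10 of 10 genes, all higher in MN1_KO, where 42.1% of all genes did the same. The median log2 fold change of the 10 genes was 4.16, with Hoxa11 at its fitted value or at its bound, and 0.08 over all genes tested.

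Mn1 itself had a log2 fold change of 7.76 ± 1.83 (SE, edgeR adjusted p = 0.0102), with means of 38.6 ± 14.2 CPM in MN1_KO and 0.139 ± 0.0598 CPM in aged_KO (SD, n = 3 each). Hoxa10 followed at 6.48 ± 1.76 (edgeR adjusted p = 0.0174), with means of 44.0 ± 27.1 CPM in MN1_KO and 0.387 ± 0.260 CPM in aged_KO. For Hoxa11, with 771 counts over MN1_KO and 0 over aged_KO, the level was at least 238-fold higher in MN1_KO when 3 counts were set as the floor over the group (edgeR adjusted p = 0.0275). Hoxa9 changed by 4.08 ± 1.16 (edgeR adjusted p = 0.0213) and Meis1 by 3.84 ± 1.12 (edgeR adjusted p = 0.0228) on the log2 scale. The genes Hoxa3, Hoxa5, Hoxa6 and Hoxa7 had log2 fold changes of 3.24 to 4.53, with edgeR adjusted p of 0.0215 to 0.0280. Pbx3 had a log2 fold change of 1.12 ± 0.81 (edgeR adjusted p = 0.282), with means of 18.2 ± 8.34 CPM in MN1_KO and 6.41 ± 1.49 CPM in aged_KO. The number of calls depended on the libraries in the fit. With those 6 libraries alone all 9 genes tested passed, without MN1_KO replicate 8 9 of the 10 passed and without replicate 7 6, but without replicate 5 only Mn1 and Hoxa10 did. Over all genes, 4254 of 13126 passed with the 6 libraries alone and 7366 of 14175 without MN1_KO replicate 8. Without replicate 7, 3234 of 14184 passed, and without replicate 5, 3369 of 14126. Leaving out any 1 of the aged_KO libraries left Mn1 as the 1 gene of the 10 past the threshold. Among all genes tested, 3083 of 14274 passed without aged_KO replicate 3, 2515 of 14236 without replicate 9 and 3730 of 14279 without replicate 10. In these fits the fold changes were 3.98 to 4.22 for Hoxa9 and 3.80 to 3.93 for Meis1, close to those with all libraries. The median edgeR adjusted p over the 10 genes was 0.0642 to 0.0766. The summed stem and progenitor markers moved with these genes, at 3628, 2652 and 1050 CPM in MN1_KO replicates 5, 7 and 8 against 224, 215 and 233 CPM in aged_KO, and their part in the result was not tested.

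**Figure D4:**
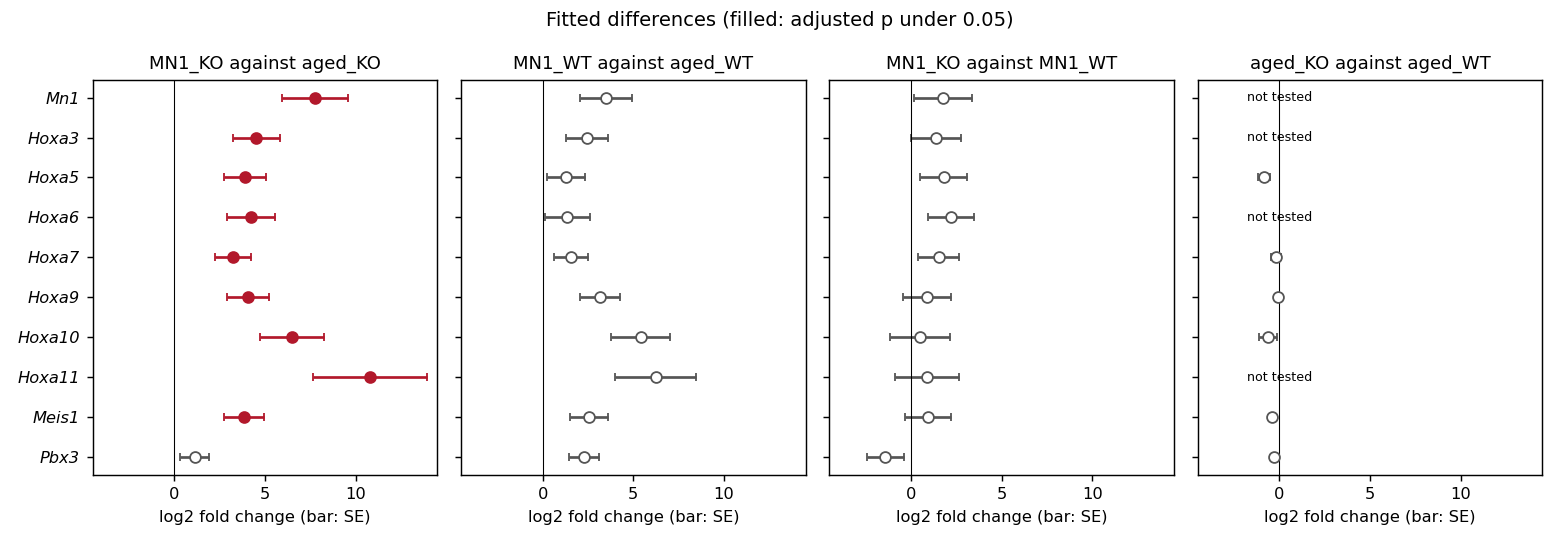
Log2 fold changes with their SE for the 10 genes in MN1_KO against aged_KO, MN1_WT against aged_WT, MN1_KO against MN1_WT and aged_KO against aged_WT; filled points have an adjusted p under 0.05 by edgeR. Filled points occur for 9 genes in the first panel, where the fitted value of Hoxa11 is no bound because aged_KO had 0 counts; 4 genes were not tested in the last panel.

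In the Hopx wild-type mice the same comparison gave positive fold changes with wide errors. None of the 10 genes passed in MN1_WT against aged_WT (0 of 10 by edgeR, 6 at an unadjusted p under 0.05, 2 by DESeq2), where 3.58% of all genes tested passed, 1.0% higher and 2.58% lower. Groups did not overlap for 0 of the 10 genes, against 27.2% of all genes higher and 13.4% lower in MN1_WT. Log2 fold changes were 5.41 ± 1.64 for Hoxa10 (edgeR adjusted p = 0.0868), 3.51 ± 1.43 for Mn1 (0.167), 3.18 ± 1.12 for Hoxa9 (0.124), 2.55 ± 1.06 for Meis1 (0.175) and 2.26 ± 0.82 for Pbx3 (0.133). Their median over the 10 genes was 2.50, against 0.06 over all genes tested. Mean levels reflected 1 library, as in Meis1 with 51.8 ± 80.9 CPM in MN1_WT and 7.28 ± 1.08 CPM in aged_WT (SD, n = 3 each). Without MN1_WT replicates 2 and 4, the log2 fold changes of the 10 genes ran from 2.71 for Hoxa5 to 7.80 for Hoxa11. Those libraries were singled out by their Mn1 level, so these fold changes say nothing further about Mn1. The other genes were also highest in replicate 3 among the MN1_WT libraries, so these fold changes are no independent support for them. The 1 MN1_WT library left gives no spread of its own. Without replicate 3, 6 of the 10 fold changes turned negative, Mn1 at -1.71 and Meis1 at -0.61 among them. Summed stem and progenitor markers were 428, 3698 and 318 CPM in MN1_WT replicates 2, 3 and 4 against 359 to 385 CPM in aged_WT, the 4 Y-linked genes together had 241, 81.8 and 229 CPM and Xist 18.1, 4001 and 2.40 CPM in the same MN1_WT libraries; their part in the result was not tested.

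The effect of Hopx loss in marrow with MN1 was then compared. By edgeR 0 of the 10 genes, and 0.0% of the 13525 genes tested, passed in MN1_KO against MN1_WT (1353 genes and 0 of the 10 at an unadjusted p under 0.05, 565 genes by DESeq2 and 6 by limma-trend). Groups did not overlap for 0 of the 10, against 6.73% of all genes higher and 8.33% lower in MN1_KO. Fold changes on the log2 scale ran from -1.41 ± 1.02 for Pbx3 (edgeR adjusted p = 0.738) to 2.20 ± 1.25 for Hoxa6 (0.648), with Mn1 at 1.76 ± 1.61 (0.796) and Hoxa9 at 0.87 ± 1.31 (0.874). The mean of Hoxa9 was 89.8 ± 58.3 CPM in MN1_KO and 51.4 ± 79.1 CPM in MN1_WT (SD, n = 3 each), so the spread within MN1_WT exceeded the difference. Without MN1_WT replicate 3, 5 of the 10 genes (Mn1, Hoxa3, Hoxa10, Hoxa11 and Meis1) were higher in MN1_KO by edgeR. In that fit 896 of the 13807 genes tested passed in either direction, and Pbx3 turned to 0.78. Leaving out MN1_WT replicates 2 and 4 left 1 MN1_WT library, so only fold changes are given for that fit. Of the 10 genes, 6 then had negative fold changes, from -2.77 for Pbx3 to -0.11 for Hoxa3, with Hoxa9, Hoxa10, Hoxa11 and Meis1 between them. Y-linked level and Hopx genotype differed together between all MN1_KO and all MN1_WT libraries and cannot be told apart.

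In mice without MN1 the 10 genes were low in both genotypes, and none of those tested passed. After the filter on low counts 6 of the 10 genes (Hoxa5, Hoxa7, Hoxa9, Hoxa10, Meis1 and Pbx3) were tested in aged_KO against aged_WT, and 0 passed by edgeR or DESeq2 (1 at an unadjusted p under 0.05), where 31.4% of the 12771 genes tested passed, 15.6% higher and 15.8% lower. All 6 fold changes were negative, from -0.07 ± 0.20 for Hoxa9 (edgeR adjusted p = 0.833) to -0.85 ± 0.35 for Hoxa5 (0.0901), with Meis1 at -0.40 ± 0.18 (0.118) and Pbx3 at -0.30 ± 0.18 (0.236). Their median was -0.35, against -0.02 over all genes tested. Groups did not overlap for 4 of the 10 genes (Mn1, Hoxa5, Hoxa7 and Meis1; 3 of the 6 tested), all lower in aged_KO, where 38.4% of all genes tested did so and 12.5% were higher. Mn1 had 8 counts over the 3 aged_KO libraries and 52 over the 3 aged_WT libraries. It was among the 4 genes removed by the filter, and it was lower in aged_KO by edgeR when no filter was applied (adjusted p = 0.0081). The stem and progenitor marker sum was lower in the same libraries, at 215 to 233 CPM in aged_KO against 359 to 385 CPM in aged_WT. B cell markers differed more, at 28.4 to 41.3 CPM in aged_KO against 511 to 1097 CPM in aged_WT. Of these markers 11 of 12 were detected in aged_KO replicates 3 and 10, and 12 of 12 in the other aged libraries. Erythroid markers summed to 593 to 1027 CPM in aged_KO against 1565 to 7140 CPM in aged_WT (1 of 12 at 0 in aged_KO), megakaryocyte and platelet markers to 60.2 to 126 CPM against 283 to 350 CPM, and neutrophil markers to 106210 to 129610 CPM against 82132 to 105940 CPM. The part of these cell types was not tested.

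A test of whether the effect of Hopx loss differed between marrow with and without MN1 found 0 of the 10 genes past the threshold by edgeR (0 at an unadjusted p under 0.05, 0 by DESeq2 of the 7 with an adjusted p), where 3.32% of the 13937 genes passed (1.41% with a positive and 1.92% with a negative difference). The difference was 4.25 ± 2.25 on the log2 scale for Mn1 (edgeR adjusted p = 0.288), 2.64 ± 1.50 for Hoxa5 (0.322) and -1.14 ± 1.13 for Pbx3 (0.578). Without MN1_WT replicate 3, 9 of the 10 passed, with Pbx3 the exception, where 3337 of the 14158 genes tested passed.

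The likeness of profiles was measured over the 12 libraries as the root-mean-square difference of standardised log2(CPM + 0.5) values, where 0 is an identical shape, among 12462 genes with a mean of at least 1 CPM. The 12 libraries split into 4 with high and 8 with low Mn1, so no correlation coefficient is given. Hoxa10 was closest to Mn1 among the genes followed, at 0.221 (place 37 of the 12462), with Meis1 at 0.236 (place 69), Hoxa3 at 0.275, Hoxa9 at 0.276 and Pbx3 at 0.734 (place 3693), and the median of all genes was 1.04. Hoxa6 was below the minimum level. Of the 10 nearest genes, Calml4 at 0.132 was the first, followed by Pigl, Thsd4, Abhd4, Eid2, Pex6, Ccpg1os, Pisd, 1 predicted gene and Slc35d3. Calml4 was at 6.99, 6.88 and 4.52 CPM in MN1_KO and at 0.0791, 5.15 and 0.0801 CPM in MN1_WT, against at most 0.406 CPM in any aged library. Around Hoxa9 the nearest were Homer2 at 0.115, Mdga1, Ccdc40, Espnl, Lrfn4, Fam155a, Slc35d3, Bcas1os2, Epha3 and Gpr161, while Meis1 was at 0.210, Hoxa3 at 0.213, Hoxa7 at 0.220 and Mn1 at 0.276. Among pairs of the genes followed, Hoxa3 and Meis1 were the most alike at 0.118, and Hoxa10 and Hoxa11 differed by 0.216. These genes share the same split of libraries, as do the stem and progenitor markers.

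The other TALE genes as a group were called at a share near that of all genes, while Meis2 in MN1_KO stood far above its aged level. Of 9 TALE genes tested in MN1_KO against aged_KO, 3 were higher and 1 was lower by edgeR, where 37.9% of all genes passed (21.1% higher, 16.8% lower), with a median log2 fold change of 0.53 against 0.08 over all genes. Meis2, a close paralogue of Meis1, was at 33.2, 200 and 16.1 CPM in MN1_KO and at 0.158, 4.07 and 0.0801 CPM in MN1_WT, against 0.0352 to 0.165 CPM in aged_KO and 0 to 0.112 CPM in aged_WT. Its log2 fold change in MN1_KO against aged_KO was 9.54 ± 1.69 (edgeR adjusted p = 0.00346). MN1_WT replicate 3, which had the highest Meis1, had less Meis2 than any MN1_KO library, but MN1_KO against MN1_WT did not pass for Meis2 (5.93 ± 1.65, edgeR adjusted p = 0.292; 4.47 ± 1.84 without MN1_WT replicates 2 and 4). Pbx4 (3.43 ± 0.70, edgeR adjusted p = 0.00580) and Pknox2 (1.76 ± 0.41, 0.00989) were the other genes of the list that rose in MN1_KO against aged_KO. In MN1_WT replicates 2, 3 and 4, Pbx4 was at 1.86, 10.1 and 1.12 CPM and Pknox2 at 3.28, 1.54 and 3.28 CPM. Pknox2 was also higher in aged_KO than in aged_WT (1.39 ± 0.19, edgeR adjusted p = 0.00145).

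Genes of the other Hox clusters with enough counts to test fell in MN1_KO against aged_KO. Of 28 genes of the Hoxb, Hoxc and Hoxd clusters listed, 3 passed the filter on low counts, and all 3 fell in MN1_KO against aged_KO by edgeR, where 16.8% of all genes did. Hoxb4, known for expanding blood stem cells when overexpressed, was at 0.946, 0.817 and 0.392 CPM in MN1_KO and at 7.83, 2.74 and 6.05 CPM in MN1_WT, against 6.86 to 9.44 CPM in aged_KO and 5.68 to 6.60 CPM in aged_WT. It fell by 3.90 ± 0.44 on the log2 scale in MN1_KO against aged_KO (edgeR adjusted p = 0.000774) and rose by 0.60 ± 0.16 in aged_KO against aged_WT (0.0208), where 0 genes of the list passed with all 12 libraries in the fit. Hoxb3 was at 0.0823, 0.0962 and 0.174 CPM in MN1_KO and at 2.57, 0.955 and 2.00 CPM in MN1_WT, against 1.69 to 4.06 CPM in aged_KO and 1.83 to 3.30 CPM in aged_WT, a fall by 4.74 ± 0.61 in MN1_KO against aged_KO (edgeR adjusted p = 0.00111). Hoxb2 had 3 counts over MN1_KO and 44 over aged_KO. In MN1_WT replicate 3, with Mn1 at 36.4 CPM, Hoxb3 and Hoxb4 were lower than in MN1_WT replicates 2 and 4 and higher than in every MN1_KO library. The knockout effect on Hoxb4 (-3.64 ± 0.58, edgeR adjusted p = 0.0136) and on Hoxb3 (-4.10 ± 0.77, 0.0227) differed between marrow with and without MN1, where 1.92% of all genes had such a negative difference. Without MN1_WT replicates 2 and 4, whose Mn1 was at aged levels, neither passed: the difference was -2.47 ± 0.43 for Hoxb4 (edgeR adjusted p = 0.0643) and -3.01 ± 0.79 for Hoxb3 (0.182), with 1 MN1_WT library left.

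**Figure D5:**
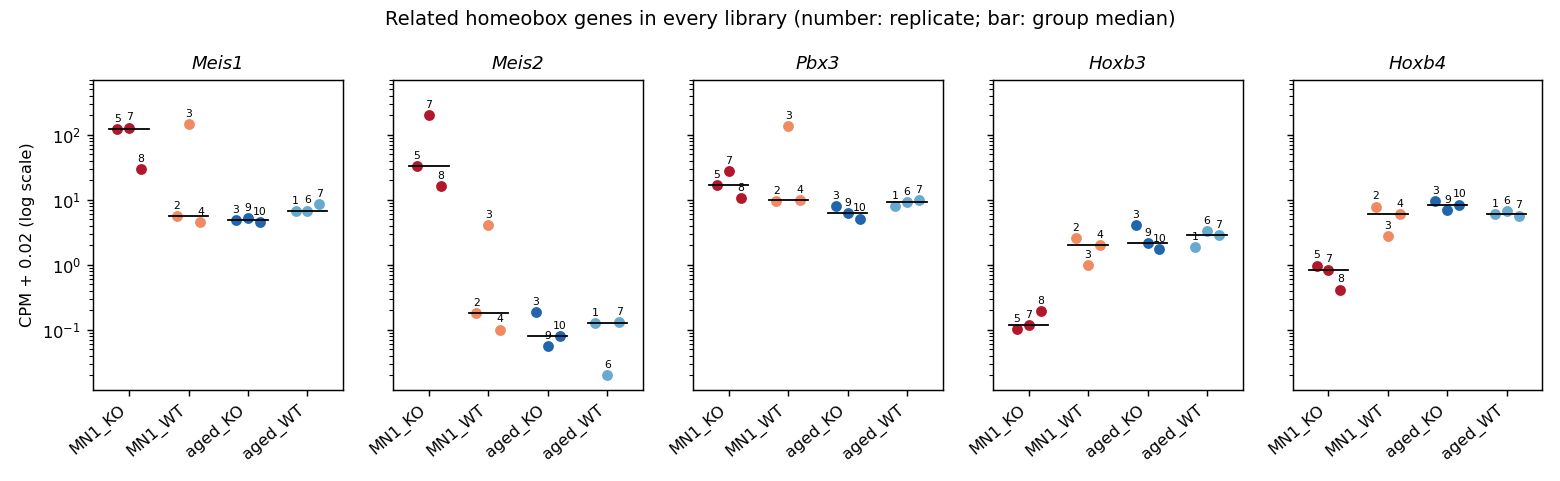
Levels of Meis1, Meis2, Pbx3, Hoxb3 and Hoxb4 in every library as CPM + 0.02 on a log axis, with MN1_KO, MN1_WT, aged_KO and aged_WT in that order; numbers are replicates and bars are group medians. Hoxb3 and Hoxb4 are lower in MN1_KO than in the other 9 libraries, while Meis1 and Pbx3 peak in MN1_WT replicate 3 and Meis2 in MN1_KO replicate 7.

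Chromatin regulators of the Hoxa cluster were called at shares near or under the 37.9% of all genes (21.1% higher, 16.8% lower), so their counts are no result about these groups. Of 16 genes tested of the KMT2A and DOT1L machinery and the Cdx family, 2 rose and 3 fell in MN1_KO against aged_KO (3 in all when those 6 libraries alone were fitted). Mllt3, a subunit of the elongation complex that is fused to KMT2A in leukaemia, rose by 2.53 ± 0.65 (edgeR adjusted p = 0.0139), at 133, 80.8 and 32.5 CPM in MN1_KO against 13.01, 11.1 and 7.50 CPM in aged_KO. Ash2l, a core subunit of the H3K4 methyltransferase complexes, rose by 0.92 ± 0.19 (0.00674), and Wdr5 and Aff1 fell by 0.44 and 0.59. Of 15 Polycomb genes, which encode repressors of Hox clusters, 3 rose and 2 fell. Bmi1 rose by 1.54 ± 0.44 (edgeR adjusted p = 0.0220), Cbx2 by 1.68 ± 0.53 (0.0301) and Ring1 by 0.77 ± 0.21 (0.0188), and Eed fell by 0.56 ± 0.12 (0.00727). Of 13 retinoid receptor, coactivator and BAF complex genes, 1 rose (Smarcd1, 1.09 ± 0.25, edgeR adjusted p = 0.00965) and 2 fell (Ep300 by 1.10 ± 0.21, 0.00477, and Crebbp by 0.75 ± 0.24, 0.0304).

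Genes of progenitors that HOXA9 and MEIS1 are known to bind were followed as well. Of 16 tested in MN1_KO against aged_KO, 10 were higher and 2 lower by edgeR, where 21.1% of all genes were higher and 16.8% lower, and their median log2 fold change was 2.22 against 0.08 over all genes. Sox4, a leukaemia-associated progenitor factor, was at 93.1, 71.6 and 8.22 CPM in MN1_KO and at 16.2, 152 and 10.1 CPM in MN1_WT, against 5.62 to 6.15 CPM in aged_KO and 17.9 to 22.2 CPM in aged_WT (2.87 ± 0.95 for MN1_KO against aged_KO, edgeR adjusted p = 0.0364). Trib2, a pseudokinase that cooperates with HOXA9, rose by 2.06 ± 0.41 in MN1_KO against aged_KO (edgeR adjusted p = 0.00510), and Pim1, a kinase gene, fell by 1.39 ± 0.20 (0.00174). Trib2 was at 5.72, 8.75 and 11.965 CPM in MN1_KO, against 1.03 to 2.09 CPM in aged_KO. These MN1_KO levels were below every MN1_WT library (13.8 to 22.6 CPM) and every aged_WT library (14.2 to 28.6 CPM). In aged_KO against aged_WT 2 of 15 tested genes of this list were higher and 8 lower, where 15.6% of all genes were higher and 15.8% lower, with a median of -0.69 against -0.02 over all genes (2 in all passed with all 12 libraries in the fit). Trib2 fell there by 3.33 ± 0.34 (edgeR adjusted p = 0.000711) and Sox4 by 1.58 ± 0.13 (0.000275), in libraries whose B cell markers summed to 28.4 to 41.3 CPM in aged_KO against 511 to 1097 CPM in aged_WT; the part of these cells was not tested. None of the genes of these lists passed in MN1_WT against aged_WT or in MN1_KO against MN1_WT by edgeR (0 in each list). Fits without MN1_WT replicates 2 and 4 left 1 MN1_WT library, so no count of these lists is given for them.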

How the data were processed

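RNA of bone marrow cells was sequenced from libraries made with a stranded mRNA kit, per the labels' protocols, in 12 libraries of 4 groups of 3. The authors deposited expected counts, TPM and FPKM per gene symbol in 2 tables, and the submitters' processing notes name RSEM 1.2.28, Bowtie2 2.3.4.3 and build mm10. The deposited expected counts were the values tested and scaled here to CPM of each library's total, and the deposited FPKM values were not used. The deposited TPM values were not tested. They served to compare genes within a library and to give group means, sums, shares and ratios that were set side by side across libraries. Of 120 expected counts of the 10 genes, 2 (both Meis1) were not whole, and all were rounded before testing. All value columns were mapped to a sample (0 left out).

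The quasi-likelihood test of edgeR 4.0.16 (R 4.3.3; robust dispersion, TMM factors, genes kept by filterByExpr) was used, with Benjamini-Hochberg adjustment over all genes tested and a threshold of 0.05. Knockout comparisons used the 6 libraries of their own table. MN1 against aged comparisons, and the difference of the knockout effects, were contrasts of 1 fit of all 12 libraries. The scripts were tested on simulated data. Alternatives were RLE scaling, DESeq2 1.42.0, limma-trend (limma 3.58.1, prior count 2), no filter, a filter of CPM of at least 1 in 3 libraries, other sets of libraries in the fit, and leaving libraries out. Where a group had 0 counts of a gene, 3 counts for the whole group stood in for them, and the resulting bound covers counting error only. Gene positions are those of GENCODE M21, and promoter windows are RefSeq's.

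The 10 genes, the gene lists and the tests were chosen with earlier results of these data known. Genes of the other lists are named when among the 4 with the smallest adjusted p in MN1_KO against aged_KO or the 2 in aged_KO against aged_WT, and profile neighbours when among the 10 nearest to Mn1 or Hoxa9. Some genes that this rule names are not reported here.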

Additional observations from a re-analysis of the deposited data

Results flagged for a closer look

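The effect of Hopx loss on Hoxb3 and Hoxb4, genes of the Hoxb cluster, differed between marrow with and without MN1 by the test of that difference. The difference of the knockout effects was -4.10 on the log2 scale for Hoxb3 (edgeR adjusted p = 0.0227) and -3.64 for Hoxb4 (edgeR adjusted p = 0.0136). Neither was past the threshold without MN1_WT replicates 2 and 4, at -3.01 and -2.47.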

How the results depend on the processing

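Of 636 fold changes of single genes under alternatives, 549 kept their direction and side of the threshold, 36 were no longer past it, 30 came past it and 21 reversed. No paired analysis was possible because the groups compared share fewer than 2 replicate numbers. For MN1_KO against aged_KO, 7 to 9 genes passed under every other scaling, tool or filter and under the fit of those 6 libraries alone, and 1 to 9 when 1 library was left out; DESeq2 gave an adjusted p to 7 of the 10. For MN1_WT against aged_WT, 2 passed by DESeq2 and 0 to 2 with 1 library left out (2 without MN1_WT replicate 4). Without replicates 2 and 4, which left 1 MN1_WT library, the log2 fold changes of the 10 genes were 2.71 to 7.80. MN1_KO against MN1_WT gave 0 to 5 with 1 library left out, and the difference of the knockout effects 0 to 9, each at its highest without MN1_WT replicate 3. In aged_KO against aged_WT, 1 gene, Mn1, passed with no filter and 0 to 1 genes passed with 1 library left out. Over all genes, DESeq2 called 1791 against edgeR's 499 in MN1_WT against aged_WT and 1685 against 463 for the difference, and the aged comparison called 818 against 4008 when all 12 libraries were fitted.

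With 1 library left out, MN1_WT against aged_WT ran from -1.71 to 4.09 for Mn1, -0.96 to 3.01 for Hoxa3, -1.55 to 1.82 for Hoxa5, -1.32 to 2.29 for Hoxa6, -0.49 to 2.09 for Hoxa7 and -0.61 to 3.08 for Meis1, each lowest without MN1_WT replicate 3, and limma-trend gave -0.085 for Hoxa5. Pbx3 ran from -1.89 to 0.78 in MN1_KO against MN1_WT and from -1.66 to 1.06 in the difference, highest without that library. Without MN1_WT replicates 2 and 4, MN1_KO against MN1_WT reversed for Hoxa3 (-0.11), Hoxa9 (-0.58), Hoxa10 (-1.06), Hoxa11 (-0.70) and Meis1 (-0.54), and the difference for Hoxa9 (-0.59), Hoxa10 (-0.50) and Meis1 (-0.22). Hoxa10 ran from -0.082 to 5.81 in MN1_KO against MN1_WT, negative without MN1_WT replicate 2, MN1_WT replicate 4 or MN1_KO replicate 5, and Hoxa9 from -0.19 to 0.028 in aged_KO against aged_WT, positive without aged_KO replicate 9. Beyond the libraries left out, the cause was not tested. Fits of other library sets for the gene lists, and for Meis2, Hoxb3 and Hoxb4, were added after seeing the data. With the 6 libraries alone, 3 genes of the KMT2A and DOT1L list passed in MN1_KO against aged_KO. With all 12 libraries in the fit, the aged comparison called 1 gene of the TALE list, 0 of the other Hox clusters, 1 of the KMT2A and DOT1L list, 1 of the Polycomb list, 0 of the retinoid list and 2 of the progenitor list. With MN1_WT replicates 2 and 4, MN1_WT against aged_WT called 0 genes of each list. The difference of the knockout effects then called 1 gene of the TALE list, 2 of the other Hox clusters and 2 of the progenitor list. Fits without these replicates left 1 MN1_WT library, so their counts for the lists are not given. Low counts limit Hoxa6, Hoxa11 and Mn1 in the aged libraries, where 1 count is worth 0.0352 to 0.0604 CPM.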

Other observations

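Surface and transcription factor markers of progenitors were high in the libraries in which the Hoxa genes were high. Gata2, a stem and progenitor transcription factor, was at 720, 603 and 328 CPM in MN1_KO replicates 5, 7 and 8 and at 81.9, 793 and 68.6 CPM in MN1_WT replicates 2, 3 and 4, against 12.5 to 17.0 CPM in aged_KO and 35.8 to 43.9 CPM in aged_WT. Cd34, a surface antigen of progenitors, was at 748, 555 and 109 CPM in MN1_KO and at 57.9, 754 and 20.2 CPM in MN1_WT, against 26.2 to 29.7 CPM in aged_KO and 47.8 to 53.1 CPM in aged_WT. For Gata2, MN1_WT replicates 2 and 4 were above every aged library. Relative to MN1_KO replicate 7, MN1_KO replicate 8 was lower in both markers, as it was in Mn1, Hoxa9 and Meis1, and not in Hoxa10 or Hoxa11.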
